A study of Homo sapiens with 14 samples.

Results

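The regions described here are the shared ZNF143 ChIP-seq peaks at non-divergent protein-coding promoters of HEK293T cells, an established human embryonic kidney line. Both deposited peak lists were merged wherever peaks overlapped by at least 1 bp, and a merged region was chosen by 3 criteria. It held peaks of both lists, its centre lay from 2000 bp upstream to 1000 bp downstream of the start of a protein-coding gene, and that start did not belong to a divergent gene pair with starts at most 1000 bp apart. Of 40687 merged regions, 14794 held peaks of both lists and 4418 (10.9%) met all criteria. The remaining shared regions were 540 at divergent promoters and 9836 elsewhere, and non-divergent promoters also held 695 regions found when untreated only and 1990 found with dTAG-V1 only.

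The cells of both groups carry ZNF143 fused to FKBP12F36V, a tag through which the small molecule dTAG-V1 directs a protein to degradation, and all come from 1 clone. ChIP was performed with the polyclonal ZNF143 antibody from Proteintech on 4 untreated samples and on 4 samples given 0.5 µM dTAG-V1 for 30 min. CTCF was profiled in the same clone, in 3 samples of either kind, and was not analysed here. For each group there is 1 pooled peak list with a summit, a fold enrichment and a −log10 q-value per peak, on the scale of its own call, and the peak names of the untreated list say DMSO where the labels say untreated. The lists hold no value of a single sample and no read counts, so the depth behind a value is unknown and the groups could not be compared against a spread of replicates. The methods describe unequal replicate rules, by which an untreated peak had to appear in all 4 replicates and a dTAG-V1 peak in at least 1. Whether the pooled lists were filtered this way was not settled by their contents, and such a filter would bear on the numbers of shared regions and of regions in 1 list only. Neither list measures the ZNF143 protein that was left after treatment.

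ZNF143 is a zinc finger transcription factor that binds close to the start sites of many housekeeping genes. Its sites come in a short form, SBS1, built on TCCCAG, and a longer form, SBS2, in which ACTACA precedes TCCCAG after a spacer of 2 bases. The factors THAP11 and HCFC1 occupy many of the same promoters, and ZNF76 is a close paralog of ZNF143. CTCF, which binds a different sequence and halts loop-extruding cohesin, is the other factor whose sites were searched, since the series profiled it as well. Positions below are in bp from the gene start, negative when upstream, and are those of a site's or peak's middle or summit.

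The best-scoring SBS sites of selected members are shown first, since SBS2 sites went with the stronger members. They belong to 6 of the 10 members with the highest untreated −log10 q-values, to 4 of the 5 with the highest site scores, and to 4 genes that the study names. Each is 30 bases of hg38, 5′ to 3′ on the strand of the site, with the 2 fixed blocks of the SBS2 matrix in capitals.
FEM1A: caaaggACTCCAttTCCCGGcgtgctgcca
BOD1: agagaaACTACAacTCCCGGcagggttcgt
GTF2H4: ggcaagACTCCAatTCCCAGcatcccccgc
IFTAP: aaaaggACTACAatTCCCAGaaatcctagg
PEMT: cggggaACTACAttTCCCAGaaggccggaa
CLPB: aaataaACTACGttTCCCAGaaggctgtgg
ZNF45: tctggaACTACAttTCCCAGcatccccggg
FTL: taatggACTACAtcTCCCAGcaggccgtgc
NFATC2IP: tcgaggACTACAttTCCCAGgatgccctgc
MRPL24: cggcggACTACAacTCCCAGcatgctgaga
DNM1L: tccagaACTACAacTCCCAGcaggccttgc
RPP30: aggttaACTACAgcTCCCAGcatgcctgag
CPOX: atccggACTACAgcTCCCAGcgcgccccag
THAP11: acggagACTACAaaTCCCGTgatgcctcgc

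In hg38, the site at FEM1A is chr19:4791670-4791699, at −50 on the strand of the gene. That at BOD1 is chr5:173616765-173616794, at −120 on the opposite strand. The site at PEMT is chr17:17591748-17591777, at −55, and that at GTF2H4 is chr6:30908134-30908163, at −59. The site at FTL, which encodes the ferritin light chain, is chr19:48965933-48965962 in intron 2 of the canonical transcript. The site at DNM1L, the mitochondrial fission GTPase, is chr12:32679151-32679180, at −35.

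The SBS1 matrix does not cover the first block, although a site that it finds may still hold it. At MRPS25, the bases ctaca stand before the spacer. Sites are shown for members whose best hit was to the SBS1 matrix, with the 6 bases of the fixed block in capitals.
MRPS25: ctacaagTCCCAGagtgctccgcggcgtgc
NDUFA7: gcgtcttTCCCAGcagccccagcggtggag
RPS26: atgtgtcTCCCAGcaagccttgcgccgcgc
PSMD3: tggcgttTCCCAGaaggcccagcgccggga
CCT8: gctgcttTCCCAGaaggctgtgcgtgctcc
TFAM: gcagattTCCCATagtgcctcgctagtggc
ZNF143: ggcccgcCCCCAGcttccattgggctgtca

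The site at TFAM, the activator of mitochondrial transcription, is chr10:58385399-58385428 in the 5′UTR of exon 1. That at ZNF143 itself is chr11:9460944-9460973, at 640 from the start of the gene record and upstream of its canonical transcript.

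The members fell into a large group of weak regions and a smaller group of strong ones. In the untreated list, 2112 members had a fold enrichment below 5, 774 from 5 to 10, 426 from 10 to 20 and 1106 of 20 or more. The median was 5.34 (interquartile range 3.15 to 20, n = 4418 members) with extremes of 1.59 and 41.6. In the dTAG-V1 list, 2624 members lay below 5 and 714 at 20 or more, with a median of 4.15 (interquartile range 3.02 to 10.6). Values of different lists are given side by side and were not compared, since each call scales its own.

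**Figure D1:**
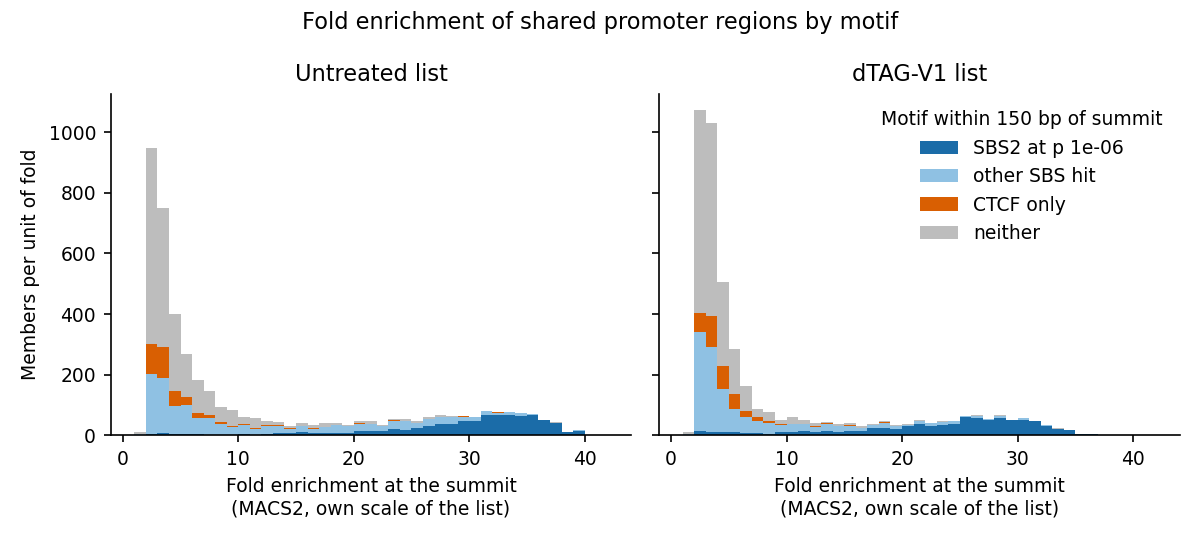
Stacked counts of members per unit of fold enrichment at the summit, for the untreated list (left) and the dTAG-V1 list (right), coloured by the motif found within 150 bp of the untreated summit. Most members lie below a fold of 5 in either list, and a second group around 30 in the untreated list consists mainly of members with an SBS2 hit at p 1e-06.

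SBS2 sites went with the strong group. An SBS hit, that is a hit to the SBS1 or SBS2 matrix at p 1e-05 within 150 bp of the untreated summit, was present in 2092 of 4418 members, or 47.4% (95% Wilson interval 45.9 to 48.8). Flanks of the same length 1000 bp away held one in 15.7% of cases. Windows from 250 bp upstream to 50 bp downstream of all protein-coding gene starts held one in 31.2%. At the stricter p of 1e-06, an SBS2 hit was present in 19.5% of members (18.3 to 20.7), in 1.26% of flanks and in 4.82% of all promoters. These intervals cover counting error only.

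Members with an SBS2 hit at p 1e-06 numbered 861 and had a median untreated fold enrichment of 31.3 (interquartile range 26.5 to 34.6), and 759 of them (88.2%) reached 20. The 434 members with an SBS1 hit at that p and no such SBS2 hit had a median of 17.1 (6.45 to 24.5). SBS hits between p 1e-05 and 1e-06 went with a median of 4.53 for SBS2 (n = 187) and 5.33 for SBS1 (n = 610). The 2326 members with no SBS hit had a median of 3.65, and 66 of them (2.84%) reached 20. The same order held in the dTAG-V1 list for the strict classes and the members without a hit, with medians of 25.4, 6.35 and 3.48. The matrices were learned from these peaks on odd-numbered autosomes, so part of this relation is built in. On even-numbered autosomes and X, which were not used for learning, 48.1% of members had an SBS hit and 19.2% an SBS2 hit at p 1e-06. These shares do not bear on the relation to fold enrichment, which was not examined on those chromosomes alone.

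Members were divided into deciles by −log10 q-value. In the untreated list, the share with an SBS hit was 99.1% in the highest decile, 95% in the next, 78.7% in the third and 47.3% in the fourth. It then declined to 18.1% (14.8 to 22.0) in the lowest decile, which was close to the 15.7% of the flanks. From the sixth decile on, with 28.3%, it was below the 31.2% of all protein-coding promoters. SBS2 hits fell off earlier, from 94.6% in the highest decile to 33.0% in the third and 4.08% in the lowest. In the dTAG-V1 list, the share with an SBS hit was 98.6% in the highest decile, reached its lowest value of 26.0% in the seventh and was 33.6% in the lowest. CTCF hits at p 1e-05 went the other way in the untreated list, from 8.6% of the highest decile to 18.1% of the seventh. In the dTAG-V1 list they were most frequent in the middle, with 23.1% in the fourth decile against 7.92% in the highest and 9.52% in the lowest.

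**Figure D2:**
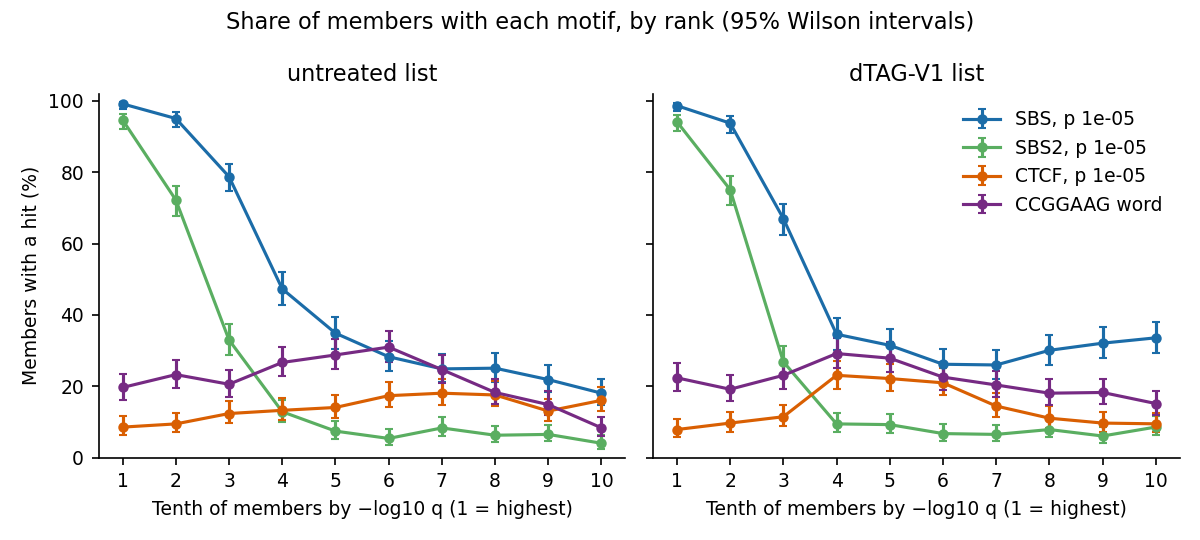
Percentage of members with an SBS, SBS2 or CTCF hit at p 1e-05, or with the word CCGGAAG, within 150 bp of the untreated summit, by decile of the −log10 q-value in the untreated list (left) and in the dTAG-V1 list (right). Points are shares of 441 or 442 members with 95% Wilson intervals, and SBS shares fall from above 98% in the highest decile to below 35% from decile 5 on.

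The strongest members also held several sites. Sites were counted as separate when hits at p 1e-06 did not overlap, and 975 members had 1, 248 had 2 and 72 had 3 or more. Within the untreated list's highest decile, 52.0% of members held 2 or more sites, against 13.3% in the next decile and 4.75% in the third. Of the 100 members with the highest −log10 q-value, 73 held 2 or more in the untreated ranking and 81 in the dTAG-V1 ranking. The median −log10 q-value in the untreated list was 19.2 with no site, 1925 with 1 site, 7606 with 2 and 10707 with 3 or more. Their median fold enrichment differed less beyond the first, at 3.87, 26.0, 31.8 and 31.6. Neighbouring sites lay a median of 58 bp apart (interquartile range 43 to 74 bp, 405 pairs), and 47.4% of pairs (42.6 to 52.3) had the same orientation.

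The member with the highest −log10 q-value was the same in both lists. FEM1A, which encodes a substrate receptor of Cullin 2 ubiquitin ligases, had an untreated −log10 q of 35588 at a fold of 33.6 and 15101 at a fold of 30.7 with dTAG-V1, and its window held 4 separate SBS sites. BOD1, needed for chromosome biorientation, and GTF2H4, a subunit of TFIIH, were the next in the untreated list at folds of 38.7 and 39.2, and took ranks 8 and 13 with dTAG-V1. CLPB, a mitochondrial disaggregase, and AP2S1, a subunit of the AP-2 clathrin adaptor, were among the 10 highest of both lists, at ranks 10 and 8 untreated and ranks 4 and 5 with dTAG-V1. The others among the 10 highest untreated were IFTAP, LYSMD1, IFRD2, PEMT and CALCOCO1, and those among the 10 highest with dTAG-V1 were FBXL19, HDGF, CDK5, NDC1, TMEM115 and BTRC. All 10 of each ranking held an SBS2 hit at p 1e-06, and 8 of 10 in each held 2 or more sites.

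The median summit of the members lay just upstream of the gene start. The untreated summit had a median position of −45 (95% interval of the median −50 to −41, n = 4418), and the dTAG-V1 summit of −58 (−65 to −53). The interquartile range of untreated positions, −202 to 89, spanned the start. In the untreated list, 1657 summits (37.5%) fell within the 200 bp before the start and 817 (18.5%) within the 200 bp after it. Relative to the canonical transcript of the nearest gene, 79.4% of untreated summits were upstream, 8.83% in the 5′UTR, 9.39% in an intron and 2.33% in a coding exon. Of 415 intronic summits, 390 were in intron 1. These positions are tied to the rule, which placed the centres around the start. Within the window, the share of members with an SBS2 hit was 36.1% for summits in the last 200 bp before the start and from 16.3% to 28.0% in each other stretch.

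SBS2 sites were oriented along the gene more often than against it. Of 861 best SBS2 hits at p 1e-06, 563 (65.4%, interval 62.1 to 68.5) lay on the strand of the gene, and 674 (78.3%) lay upstream of its start. Their median position was −66. Over all protein-coding promoters, 62.4% of best SBS2 hits at that p were on the strand of the gene (59.3 to 65.4, n = 965). The intervals overlap, and members are among these promoters, so no difference is drawn. The best SBS1 hits at p 1e-06 lay on the strand of the gene in 57.4% of members (54.2 to 60.6, n = 930). Best CTCF hits at that p did so in 65.8% of members (59.6 to 71.5, n = 240) and 65.2% of all promoters (n = 640). The bias is thus not particular to SBS2. The most populated stretch was from −75 to −50, a range singled out after the values were seen, with 136 members of which 107 (78.7%, 71.1 to 84.7) had the site on the strand of the gene. From −50 to −25 this share was 75% (64.5 to 83.2, n = 80), from −25 to the start 43.4% (32.9 to 54.6, n = 76), and in the 200 bp downstream it was 57.1% (46.0 to 67.6, n = 77).

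**Figure D3:**
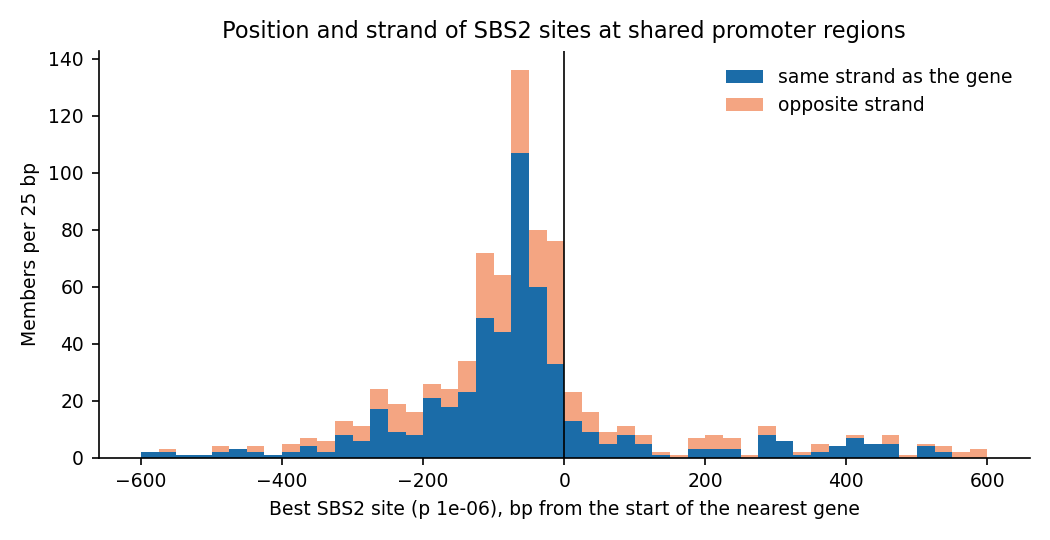
Position of the best SBS2 hit at p 1e-06 relative to the start of the nearest gene, in bins of 25 bp, for hits on the strand of the gene (blue) and on the opposite strand (orange). The highest bin, from −75 to −50, holds 136 members, of which 107 have the site on the gene's strand, and 72 members lie outside the plotted 600 bp on either side.

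Summits of both lists lay closest together in the highest deciles of the −log10 q-value. Over all members the summits of the lists were a median of 25 bp apart (interquartile range 7 to 95 bp). In the untreated list's highest decile the median was 3 bp and 93.2% of members were within 25 bp, against a median of 104 bp and 18.6% in the lowest decile. Members with an SBS but no CTCF hit had a median of 11 bp (n = 1813), members with both 17 bp (n = 279), with CTCF only 29 bp (n = 341) and with neither 47 bp (n = 1985). Summits were over 200 bp apart in 12.6%, 7.17%, 6.45% and 17.9% of these classes, in the same order. Best SBS2 hits at p 1e-06 were a median of 12 bp from the untreated summit and 14 bp from the dTAG-V1 summit. Best CTCF hits at that p, in 240 members, were a median of 36 bp from the untreated and 28 bp from the dTAG-V1 summit.

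The order of the members was largely kept between the lists. Spearman's rho of the −log10 q-values was 0.84 over 4418 members, a description over regions of the same pooled libraries. Of the 441 members ranked highest in the untreated list, 372 (84.4%) were among the 441 ranked highest with dTAG-V1. Ranks are used below because they are set within each list, and a gain in rank of one class entails a loss in others. They come from the lists that chose the members, so they are given as a description with no test.

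Members with a CTCF hit and no SBS hit stood higher in the dTAG-V1 list than in the untreated list, in the lower 3 quintiles of the untreated ranking. Their median rank was at the percentile 32.0 untreated and 47.1 with dTAG-V1, where 100 is the highest, and the median change per member was 11.7 percentile points (interval of the median 9.3 to 13.6, n = 341), with 253 of 341 higher. Members with an SBS hit and no CTCF hit changed by a median of −0.973 points (−1.24 to −0.656, n = 1813), and those with neither by 3.19 points (2.56 to 3.93, n = 1985). For members with both motifs the median was −0.77 points (−1.81 to 0.249, n = 279). Since low ranks can mostly rise, the classes were also compared within quintiles of the untreated ranking. In the fourth quintile, the medians were 16.2 points for CTCF only (12.3 to 20.3, n = 116), 13.6 for both (n = 42), −4.71 for SBS only (n = 179) and 3.6 for neither (n = 547). In the third quintile they were 6.22 for CTCF only (n = 90), −15.7 for SBS only (n = 230) and 0.973 for neither (n = 514). Members with both motifs had a median of −5.66 there (−14.1 to −0.192, n = 49). In the second quintile, CTCF only members had a median of 0.102 (−3.2 to 4.37, n = 34), with 18 of 34 higher, and SBS only members of −3.08 (n = 477). Those with both motifs had −4.09 in that quintile (−6.45 to −1.77, n = 80). In the highest quintile, 780 members were SBS only and their median change was −0.238 points, and 2 were CTCF only. The 78 with both motifs had a median of −0.124. In the lowest, the medians were 20.7 for CTCF only (15.2 to 27.6, n = 99), 4.93 for SBS only (2.22 to 7.92, n = 147) and 8.96 for neither (n = 607). For both motifs the median was 18.5 (7.9 to 29.8, n = 30).

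**Figure D4:**
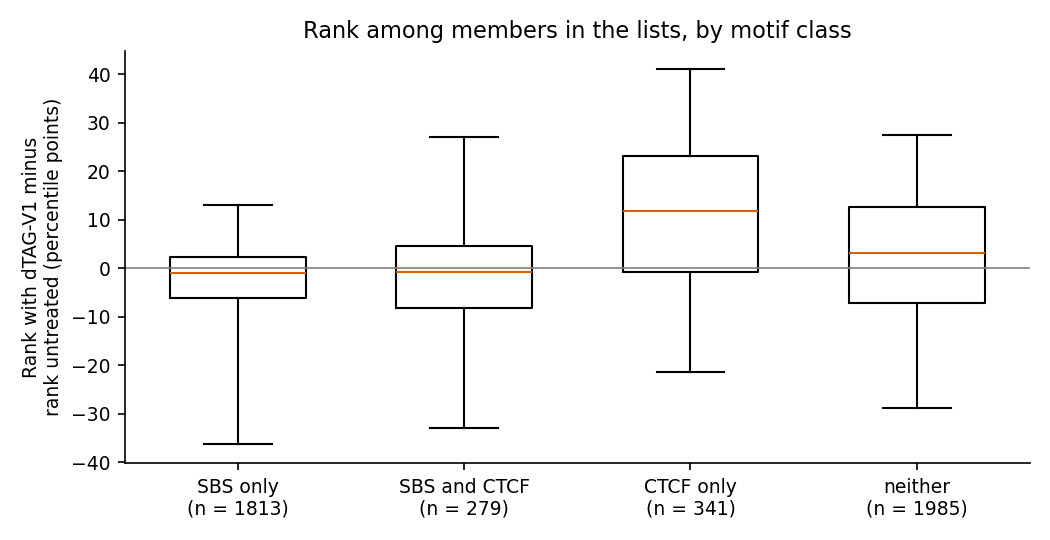
Change in the rank among members, dTAG-V1 minus untreated, in percentile points of the −log10 q-value, by motif class. Boxes give the median and quartiles and whiskers the 5th and 95th percentiles over members, and the median is 11.7 for members with a CTCF hit only and −0.973 for those with an SBS hit only.

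CTCF sites are shown with the letters that the matrix fixes most strongly in capitals. They belong to 4 of the 5 members that rose the most in rank and to 3 of the 5 with the highest CTCF scores. GGA1 and NUDT17 hold an SBS hit as well.
TTR: ctttatggCCACaAGatGGCactatgcacg
SLITRK6: ttaaaaatCCACcAGggGGTgctagaagag
GGA1: ccagccggCCGCgAGggGGCgacagagtgc
GNAI2: gctggtgaCCGCcAGggGTCagcagaggcc
MRPL38: atggctggCCACcAGggGGCggcacagacc
KIF1B: cccgagggCCACcAGggGGCgctcgatgtt
NUDT17: tctctaggCCACcAGagGGCgccaggcggg

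The largest rise was at TTR, the gene of the thyroxine carrier transthyretin, which went from rank 4266 to rank 1548 of 4418. The untreated fold there was 2.11 and the dTAG-V1 fold 4.77. Its CTCF site, chr18:31556061-31556090, lies at −933, upstream of the gene, and 4 bp from the untreated summit. SLITRK6 followed, from rank 4404 to 1892, with a CTCF site 19 bp from the summit. TSC22D3, a glucocorticoid-induced gene, rose from 3918 to 1655 with no SBS or CTCF hit, and its summits lay 239 bp apart. GGA1, an adaptor of the trans-Golgi network, and GNAI2, an inhibitory G protein subunit, completed the 5 largest rises, each with a CTCF hit. GGA1 also holds an SBS1 hit at p 1e-06, 17 bp from the untreated summit, with its CTCF hit 26 bp from it. Of the 5 members with the highest CTCF scores, SMIM44, MRPL38 and NUDT17 rose by 18.2, 16.5 and 31.6 points, whereas KIF1B and CXCL12 changed by −2.55 and −10.9. SMIM44, NUDT17 and CXCL12 also hold an SBS1 hit at p 1e-05.

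The largest falls were at PYGM, the muscle glycogen phosphorylase, and at ASCC3, TAOK1, RUNDC3B and ZDHHC21. PYGM went from rank 1361 to 4357, with an untreated fold of 16.7 and a dTAG-V1 fold of 2.35, and its summits were 369 bp apart. It holds an SBS2 hit 14 bp from the untreated summit.
PYGM: tataggACTACAgtTCCCAGggccccgtgc

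That site is chr11:64760617-64760646, at −658, upstream of the gene. The other 4 members held neither an SBS nor a CTCF hit at p 1e-05, with untreated folds from 10.1 to 11.9 and dTAG-V1 folds from 2.1 to 2.41.

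Compared with other shared regions, members held more SBS and fewer CTCF sites than those outside protein-coding promoter windows, which can include promoters of noncoding genes, while the SBS share at divergent promoters differed by less than its interval. All differences here are members minus the other regions. SBS hits were present in 23.9% of shared regions elsewhere, a difference of 23.4 points (21.7 to 25.1), and CTCF hits in 24.3%, a difference of −10.3 points (−11.6 to −8.94). The members' own CTCF share was 14.0%, above the 10.8% of all protein-coding promoters (3.28 points, 2.2 to 4.42) and the 4.55% of flanks. At divergent promoters the SBS share was 50.6% and the difference was −3.2 points (−7.65 to 1.25), and for the CTCF share of 8.89% it was 5.14 points (2.27 to 7.51). Promoter regions found only in the untreated list had an SBS hit as often, in 49.6% (difference −2.29 points, −6.28 to 1.7). However, their share with an SBS2 hit at p 1e-06 was 4.17%, a difference of 15.3 points (13.2 to 17). Promoter regions found only with dTAG-V1 held SBS hits in 15.7% and CTCF hits in 19.9%, differences of 31.7 (29.5 to 33.8) and −5.92 points (−7.98 to −3.92). These regions were searched around the dTAG-V1 summit, where the members' own shares were 43.5% for SBS and 14.9% for CTCF. Promoter regions found in a single list were weaker than members. The median untreated fold was 3.18 for untreated only regions and 5.34 for members. The median dTAG-V1 fold was 2.62 for dTAG-V1 only regions and 4.15 for members. The shares were not matched for fold enrichment. The difference intervals are of Newcombe's type and treat regions as independent.

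Nearly as many members held neither an SBS nor a CTCF hit at p 1e-05 (1985) as held an SBS hit (2092). This depends on the threshold, since at p 5e-05 the numbers were 909 and 3182. They are the weaker part, with a median untreated fold of 3.66 and a median dTAG-V1 fold of 3.39. The word CCGGAAG, the core of sites for ETS factors, a family that includes the housekeeping activator GABPA, was present in 22.8% of members with neither motif (21.0 to 24.7) and 20.7% of those with SBS only. Over all members it was present in 21.6% (20.4 to 22.9), against 2.16% of flanks, 11.9% of all protein-coding promoters, 28.1% of shared regions at divergent promoters, 10.6% of promoter regions found when untreated only and 7.54% of those found with dTAG-V1 only. The difference from divergent promoters was −6.51 points (−10.6 to −2.68). All words were searched on both strands. Which promoters are active in these cells was not measured here. By decile of the untreated list the word was most frequent in decile 6 (31.0%) and least frequent in the lowest (8.39%).

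By 8-letter words, the sequence most enriched at members over their flanks was ACTTCCGG, read as CCGGAAGT on the other strand. It was in 10.2% of members, 0.351% of flanks and 5.1% of all protein-coding promoters. It also came first among members with neither motif, with 11.2%. Of the 10 highest words over all members, 7 overlap the ETS core: ACTTCCGG, CACTTCCG, CTTCCGGC, CCGGAAGC, CCCGGAAG, CGCCGGAA and ACCGGAAG. The others were ATGGCGGC (6.79%), which resembles the YY1 core, GCCCCGCC (18.1%), a GC box read by SP and KLF factors, and CGCATGCG (2.76%), the palindromic core of NRF1 sites. Over all promoters, ATGGCGGC was present in 3.17% and CGCATGCG in 2.46%. Only GCCCCGCC was less frequent than over all protein-coding promoters, where it was present in 22.8%. Among members with an SBS hit, the words TCCCGGCA, AGTTGTAG and CGGACTAC also ranked in the first 10, in 7.98%, 6.84% and 3.49% of members against 2.06%, 1.07% and 0.509% of all promoters. These are pieces of the SBS2 site for which these members were selected, so their frequency follows from the selection.

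Other promoter words differed from all protein-coding promoters by varying amounts. AAGATGG, the YY1-type word, was present in 9.64% of members and 5.61% of all promoters, and GGGCGGG in 34.8% and 38.9%. The E-box CACGTG was present in 9.6% against 8.36%, the CRE word TGACGTCA in 2.72% against 2.29% and CCAAT in 33.5% against 35.9%. The TATA-type word TATAAA was less frequent at members, with 5.98% (5.31 to 6.71) against 10.8% of all promoters. GGGCGGG was present in 41.6% of SBS only members and 28.3% of those with neither. The GC content of the window around the summit had a median of 63.0% in SBS only members and 58.7% in members with neither.

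Genes of the translation machinery, the proteasome and respiratory complex I often had a member, and olfactory receptor and keratin genes seldom did. Of 20007 protein-coding genes, 4836 (24.2%) had a member in their promoter window, and 960 (4.8%) had a member with an SBS2 hit at p 1e-06. Gene counts below include genes that share a member with a neighbour.

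Among genes of the translation machinery, 59 of 85 cytosolic ribosomal protein genes (69.4%) had a member, 47 of 77 mitochondrial ribosomal protein genes (61%) and 24 of 34 aminoacyl-tRNA synthetase genes (70.6%). Median untreated fold enrichments were 9.07, 7.15 and 6.09, beside 5.34 over all members. RPS26, a protein of the small cytosolic subunit, had a fold of 31.7 and rank 31 in the untreated list, and 27.8 and rank 44 with dTAG-V1. MRPL24, a protein of the large mitochondrial subunit, ranked 47 and 28 at folds of 23.4 and 24.9, and MRPS25 ranked 235 and 308. LARS1, the cytosolic leucyl-tRNA synthetase, ranked 49 and 11 at folds of 32.0 and 32.1. Members with an SBS2 hit at p 1e-06 were present at 11, 6 and 4 genes of the lists, beside 960 of the 4836 genes with a member in all.

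Of 38 genes of respiratory complex I, 22 (57.9%) had a member, 1 of them with an SBS2 hit at p 1e-06, and 9 more had a shared region at a divergent promoter only. The highest was NDUFA2, with folds of 34.6 and 23 and a fall from rank 389 to 717. Its region also lies in the promoter window of IK, a splicing factor. NDUFA7 followed at ranks 547 and 574 in a region shared with RPS28. The proteasome had 29 of 48 genes with a member (60.4%), led by PSMD11, PSMD3 and PSMD4 with untreated folds of 39.1, 39.3 and 34.6. Sm and LSM protein genes had 15 of 27 (55.6%) and general transcription factor genes 23 of 42 (54.8%). Examples here are those with the highest −log10 q-value. Mediator had 12 of 30 (40.0%), led by MED11, MED27 and MED16 with untreated folds of 33.6, 39.5 and 27.7. Replication licensing genes had 7 of 19 (36.8%), led by CDC6 and MCM3 with folds of 33.5 and 29.7.

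In the chaperonin, the ring that folds actin and tubulin, 1 of 8 genes had a member, CCT8, and 5 had a shared region at a divergent promoter only. Of zinc finger genes named ZNF, 248 of 508 (48.8%) had a member, and 108 of them one with an SBS2 hit at p 1e-06. The median untreated fold at these members was 17.7. ZNF605, ZNF223 and ZNF140 had the highest −log10 q-values, at folds of 40.1, 29.6 and 15.5. By chromosome, the share of genes with a member was highest on chromosome 19, where many of these genes cluster, with 466 of 1476 (31.6%), and lowest on X among chromosomes with a member, with 135 of 859 (15.7%). Chromosome 19 also had the highest share with an SBS2 hit at p 1e-06, 10.4%. Genes that are silent in most tissues had few members. They numbered 1 of 415 olfactory receptor genes, at OR4K2 with an SBS2 site at −1787, and 1 of 55 keratin genes, KRT222, in a region whose nearest start belongs to another gene record.

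**Figure D5:**
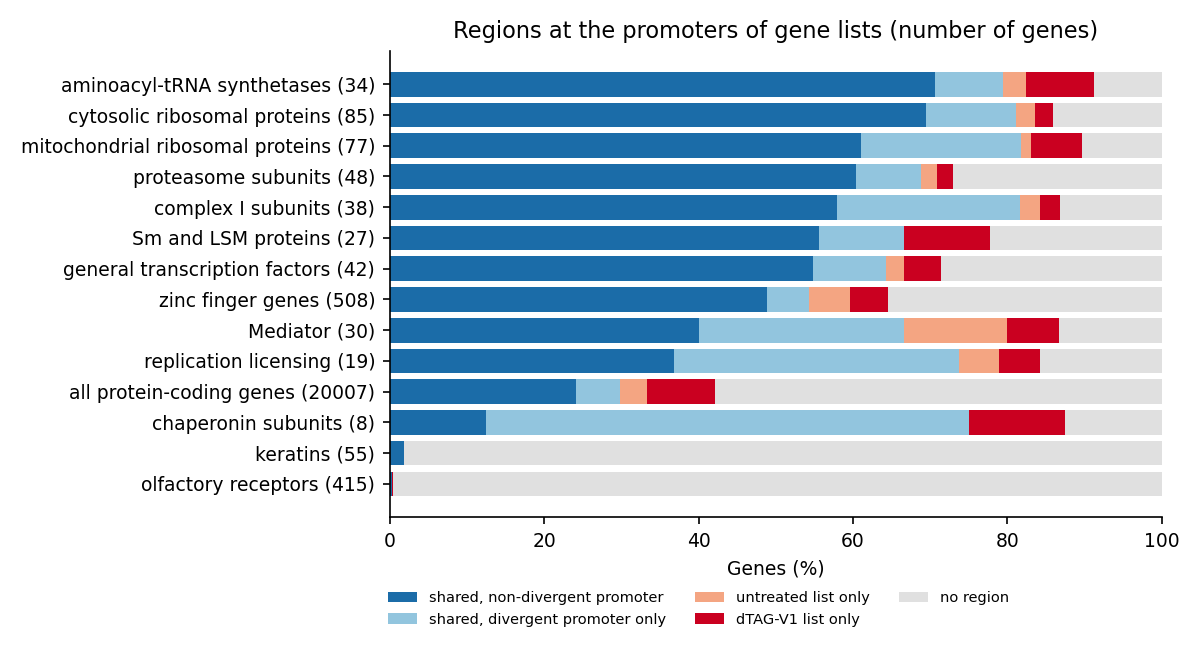
Percentage of genes in each list, with the number of genes in parentheses, that have a member, only a shared region at a divergent promoter, only a region of the untreated list, only a region of the dTAG-V1 list, or no region. Cytosolic ribosomal protein genes reach 69.4% with a member and all protein-coding genes 24.2%.

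Genes that the study names, in part from its mouse data, were looked up by their human symbol. Members were present at TFAM, NDUFAB1, MTRF1, DNM1L, RPP30, POMGNT2, CPOX and TALDO1. COA3, TUFM, TCP1 and MRPS11 had a shared region at a divergent promoter, which left them outside the members, and CYC1 and CLDN1 had no region in their window. MTRF1, a mitochondrial release factor, had the highest rank of these, 124 untreated and 141 with dTAG-V1, followed by DNM1L at 218 and 195. TFAM ranked 826 and 1026 at folds of 26.1 and 11.2, and TALDO1, an enzyme of the pentose phosphate pathway, ranked 1630 and 1721 at folds of 7.82 and 4.95.

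The genes of ZNF143 and its partners differed. The member at ZNF143 itself had folds of 26.5 and 7.54 and fell from rank 357 to 1160, and that at its paralog ZNF76, with no SBS hit at p 1e-05, had folds of 7.28 and 2.99 and fell from 1808 to 3303. THAP11 kept its place, at ranks 497 and 462 and folds of 13.3 and 12.6. HCFC1 had a shared region at a divergent promoter.

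Regions nearest to the limits of the rule are given as a description. The last inside the upstream limit included CYB5B with its centre at −2000 and RNF165 at −1992, with untreated folds of 2.63 and 32.1, and the next outside were RSPH6A, 1 bp past the limit, and KCNE2 at −2007, with folds of 5.31 and 2.87. Downstream, PICK1 at 997 and H2AZ1 at 999 were the last inside, with folds of 20.2 and 2.57, and HYAL2 at 1002 was among the next outside, with 11.7. The pair BTF3L4 and TXNDC12, 1008 bp apart, was just beyond the divergent limit at a fold of 27.2, and the pair APBA3 and MRPL54, 990 bp apart, was within it at 15.9.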

How the data were processed

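ZNF143 ChIP-seq was available as 1 peak list per condition. According to the methods, the authors aligned reads with bwa and removed PCR copies with Picard. MACS2 then gave narrow peaks, of which blacklisted ones and those off the canonical chromosomes were dropped. The deposited columns hold an integer score made from the q-value, the fold enrichment at the summit as a ratio over local background, the −log10 p-value (not used here) and −log10 q-value, and the summit's offset. Columns of single samples that were left unused number 0. Neither list has counts, so depth and the precision it gives are unknown.

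Lists were merged, annotated with GENCODE release 44 and searched in hg38, the build of the lists, with samtools 1.23.1, pysam 0.24.0 and, in Python 3.11.15, scipy 1.17.1, pandas 2.3.3 and numpy 2.4.6. SBS1, SBS2 and CTCF matrices of 18, 21 and 16 bp were learned on odd-numbered autosomes from merged regions over 10 rounds at p 1e-06, with a pseudocount of 0.8, and were tested on simulated data. Hits were counted at p 1e-05 in 300 bp around the untreated summit. Regions without an untreated summit were searched around the dTAG-V1 summit. Intervals of shares are Wilson intervals at 95%. Intervals of medians are exact binomial ones over regions. No test between conditions was made. The named genes are the 10 highest −log10 q-values of each list, the 5 largest rises and falls in rank, the 5 best SBS and CTCF scores, the 3 highest per gene list, the promoters of the study and regions at the limits of the rule, of which some are printed. Members, lists and alternatives were chosen with earlier results of these data known. Alternatives covered hit thresholds, windows, peak thresholds, start sites and divergent distances.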

Additional observations from a re-analysis of the deposited data

How the results depend on the processing

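No paired analysis was possible because the pooled lists carry no replicate numbers, and leaving out a replicate was not possible for the same reason. The cause of the changes below was not tested. The share of members with an SBS hit, 47.4%, was 72.0% with hits at p 5e-05, 29.3% at p 1e-06, 15.2% with a fixed consensus of at most 2 mismatches, 43.5% at the dTAG-V1 summit, 60.4% in the whole region, 43.1% in 200 bp and 49.9% with peaks at a −log10 q of at least 5. For CTCF, 14.0% became 29.2%, 5.43% and 51.1% under the first 3 of these, 23.5% in the whole region and 10.6% in 200 bp. SBS2 hits at p 1e-06, in 19.5%, were in 20.9% of whole regions and 21.6% of members at a −log10 q of at least 5. At the dTAG-V1 summit, CCGGAAG was in 19.5% and GGGCGGG in 31.1% of members. In the whole region and in 200 bp, CCGGAAG was in 30.6% and 18.1%, AAGATGG in 16.7% and 7.51%, TATAAA in 18.2% and 3.8% and GGGCGGG in 51.6% and 25.1%. The median summit position, −45 bp, was −58 bp for the dTAG-V1 summit and −57 bp from the nearest transcript start. The median rank change of members with neither motif, 3.19 points, was 5.6 with hits at p 5e-05. The keratin gene was lost with nearest genes only, which left 0, and with peaks at a −log10 q of at least 5, which left 0. The number of members, 4418, ranged from 3646 with 50% reciprocal overlap to 5096 with transcript starts, and the number of genes with a member, 4836, was 4335 with nearest genes only. Of 85 alternatives, 56 stayed within the counting interval or within 1.5 times the count, and 29 did not. A reversal of direction was possible only for the medians of summit position and of rank change, and 0 of those reversed. Counts and shares could not reverse. The even-numbered chromosomes for the orientation of SBS2 sites, 67.1%, were added after seeing the data.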
